A study of Mus musculus with 2 samples.

Results

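Non-cycling Gzmb-high Xcl1-low CD8 T cells were taken from droplet-based single-cell RNA sequencing of immune cells that infiltrated MC38 tumours, a mouse colon adenocarcinoma line. Members were chosen by their own measured UMIs (unique molecular identifiers, tags that let copies of the same captured RNA be counted once). A cell belonged to the class when UMIs of Cd3d, Cd3e, Cd3g and Trac summed to at least 3, and those of Cd8a and Cd8b1 to at least 2. It also had no Cd4 or Foxp3 UMI, a sum under 10 for the macrophage genes C1qa, C1qb, C1qc, Lyz2 and Csf1r, and a sum under 3 for the cycling genes Mki67, Top2a, Ube2c and Birc5. Xcl1 had to be under 3 UMIs and Gzmb at 2 or more. These criteria kept 534 of 9059 cells, 208 of 5001 in the Ifnar1-SA library and 326 of 4058 in the WT library.

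Tumours had grown for 14 days in untreated mice of the Ifnar1-SA genotype or in wild-type (WT) mice, with 1 library each. Ifnar1 encodes 1 of the chains through which type I interferon is sensed, and the labels do not spell out what SA stands for. They call the material infiltrating immune cells in one field and CD8 T cells in another, and give no number or sex of animals. With 1 library per genotype there is no replicate check and no test, so "higher" and "lower" compare these libraries, and every interval is a 95% interval for counting error only.

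CD8 T cells that have met antigen arm themselves with granzymes, proteases that are carried into the target cell through pores made by perforin, and release cytokines such as interferon gamma. In tumours, chronic antigen drives such cells to keep inhibitory receptors, among them PD-1 (Pdcd1), while cells with stem-like features keep Tcf7 and Il7r. Type I interferon acts through Ifnar1 and Ifnar2, and induces a broad set of antiviral genes in most cell types.

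Ifnar1, the gene after which the genotype is named, was sparse in members of both libraries. It had 88.2 CPM (UMIs per 1000000 UMIs) in Ifnar1-SA members and 74.4 CPM in WT members (log2 ratio 0.25, -0.14 to 0.63), and Ifnar2 had 23.9 CPM in Ifnar1-SA and 31.6 CPM in WT (-0.40, -1.13 to 0.29). Both intervals include 0. The labels do not give the altered bases of the allele, so these counts do not check the genotype.

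The members made up 31.1% of the Ifnar1-SA CD8 T cells (208 of 668, exact Clopper-Pearson interval 27.6% to 34.8%) and 33.3% of the WT CD8 T cells (326 of 980, 30.3% to 36.3%). As shares of all kept cells they were 4.16% in Ifnar1-SA and 8.03% in WT. The other CD8 T cells of the same gate were 193 Gzmb-low Xcl1-low, 151 Xcl1-positive and 116 cycling cells in Ifnar1-SA, against 276, 106 and 272 in WT. Members held a median of 4904.5 UMIs in Ifnar1-SA and 4866.5 in WT. No barcode was shared by members of both libraries, and 7 were shared among kept cells.

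Gzmb, which the rule used, is given as a description. Its median was 6 UMIs per member in both libraries, with quartiles of 3 and 13 and a maximum of 113 in Ifnar1-SA and 117 in WT. Just inside the limit, 37 Ifnar1-SA and 56 WT members held 2 UMIs, and just outside it 45 Ifnar1-SA and 77 WT cells held 1. At the Xcl1 limit, 9 Ifnar1-SA and 3 WT members held 2 UMIs, while 6 and 5 otherwise matching cells held 3. At the cycling limit, 11 Ifnar1-SA and 23 WT members had a sum of 2, and 5 and 13 otherwise matching cells a sum of 3.

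Pdcd1, the marker of the class that the rule did not use, had a UMI in 66.8% of Ifnar1-SA members and 78.5% of WT members. After each cell was thinned to 2000 UMIs, which left 192 Ifnar1-SA and 303 WT members, the shares were 49.0% and 58.1%. Thinned shares rest on 1 random draw, and for the genes followed here they lay up to 9.63 points from the share expected over all draws in Ifnar1-SA members (Lag3) and up to 3.91 points in WT members. In macrophage-gated cells the Pdcd1 shares were 0.128% in Ifnar1-SA and 0.324% in WT at the same thinned depth (medians before thinning 8810 and 10655 UMIs). Markers of other cells were low. All 5 neutrophil genes, Ncr1 and the dendritic cell genes Flt3, Xcr1, Clec9a, Cd209a and Siglech stood at 0 in both libraries, which allows up to 2.76 CPM in Ifnar1-SA and 1.61 CPM in WT (3 counts over all members). The 12 macrophage markers outside the rule, of which Lyz1 alone was at 0 in Ifnar1-SA and none in WT, summed to 606 CPM in Ifnar1-SA members and 467 CPM in WT members, against 34989 and 34789 CPM in the macrophage gate. Free RNA and doublets give such counts too, and their part in the results below was not tested, except that some values are also given without members of 3 or more macrophage UMIs.

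By summed CPM, Gzmf and Gzmc were far higher in members than in Gzmb-low Xcl1-low CD8 T cells of the same library. Since the rule divides these cells by Gzmb, the values are a description. A cut on raw Gzmb UMIs also favours deeper cells. Gzmb-low cells held medians of 3288 UMIs in Ifnar1-SA and 3774.5 in WT, against 4904.5 and 4866.5 in members. The part of depth in the list medians against Gzmb-low cells was not tested. Past a 1.5-fold ratio stood 6.36% of 4908 genes upward and 10.2% downward in Ifnar1-SA, and 3.37% of 4866 genes upward and 5.57% downward in WT. Gzmf reached 1003.5 CPM in Ifnar1-SA members, against 53.3 CPM in Ifnar1-SA Gzmb-low cells (log2 ratio 4.24). In WT it reached 634 CPM in members, against 61.2 CPM in Gzmb-low cells (log2 ratio 3.37). Most members held no Gzmf: it was found in 33 Ifnar1-SA and 52 WT members. The 5 highest cells held 66.0% of its UMIs in Ifnar1-SA and 43.2% in WT. After thinning, 15.1% of Ifnar1-SA and 13.9% of WT members had a Gzmf UMI, against 3.97% and 4.13% of Gzmb-low cells. For Gzmc the within-library log2 ratios were 3.28 in Ifnar1-SA and 3.89 in WT. Both encode granzymes described in mouse T and NK cells. The metallothionein gene Mt1 was the other gene past the naming limits upward in both libraries (log2 ratios 1.64 in Ifnar1-SA and 1.49 in WT). Only 9.38% of thinned Ifnar1-SA and 9.24% of thinned WT members had an Mt1 UMI, against 34.9% and 41.7% of macrophage-gated cells. The 5 highest members held 35.2% of its UMIs in Ifnar1-SA and 50.5% in WT.

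Genes of less differentiated cells mostly lay lower in members than in Gzmb-low cells. Of the naive, stem and memory list, 2 of 12 genes stood above Gzmb-low cells in Ifnar1-SA (median log2 ratio -1.14) and 2 of 7 in WT (-0.39). Ccr7, a lymph node homing receptor, stood at 29.4 CPM in Ifnar1-SA members, against 108 CPM in Ifnar1-SA Gzmb-low cells, and at 5.89 CPM in WT members, against 62.9 CPM in WT Gzmb-low cells. Emb, which encodes the membrane protein embigin, was the other gene below in both libraries (log2 ratios -1.15 in Ifnar1-SA and -1.24 in WT). Tcf7 had 10 UMIs over all members of each library.

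Gzmc and Gzmf were highest in the members with most Gzmb. Among thinned members of Ifnar1-SA, 55 held 0 or 1 Gzmb UMI, 68 held 2 to 4 and 69 held 5 or more, and Gzmf stood at 2.91, 3.53 and 14.9 UMIs per 10000 in these bins. In WT the bins held 86, 130 and 87 members, with Gzmf at 5.12, 3.23 and 12.5. Gzmc was at 1.64, 1.84 and 7.46 in Ifnar1-SA and at 0.93, 0.654 and 4.31 in WT. Pdcd1 was nearly level over the bins, at 4.45, 4.49 and 4.35 in Ifnar1-SA and 6.45, 4.96 and 5.69 in WT. Few cells carried the rarer granzymes. Gzmc was found in 44 Ifnar1-SA and 43 WT members, and the 5 highest cells held 51.6% of its UMIs in Ifnar1-SA and 64.6% in WT. After thinning, any of Gzmc, Gzmd, Gzme and Gzmf was seen in 26.0% of Ifnar1-SA members and 18.5% of WT members. Gzmb-low cells held them in 15.2% in Ifnar1-SA and 10.1% in WT, and macrophage-gated cells in 1.79% and 0.728%. Xcl1-positive cells carried them too, in lower shares than members of the same library. These granzymes were thus not limited to members.

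**Figure D1:**
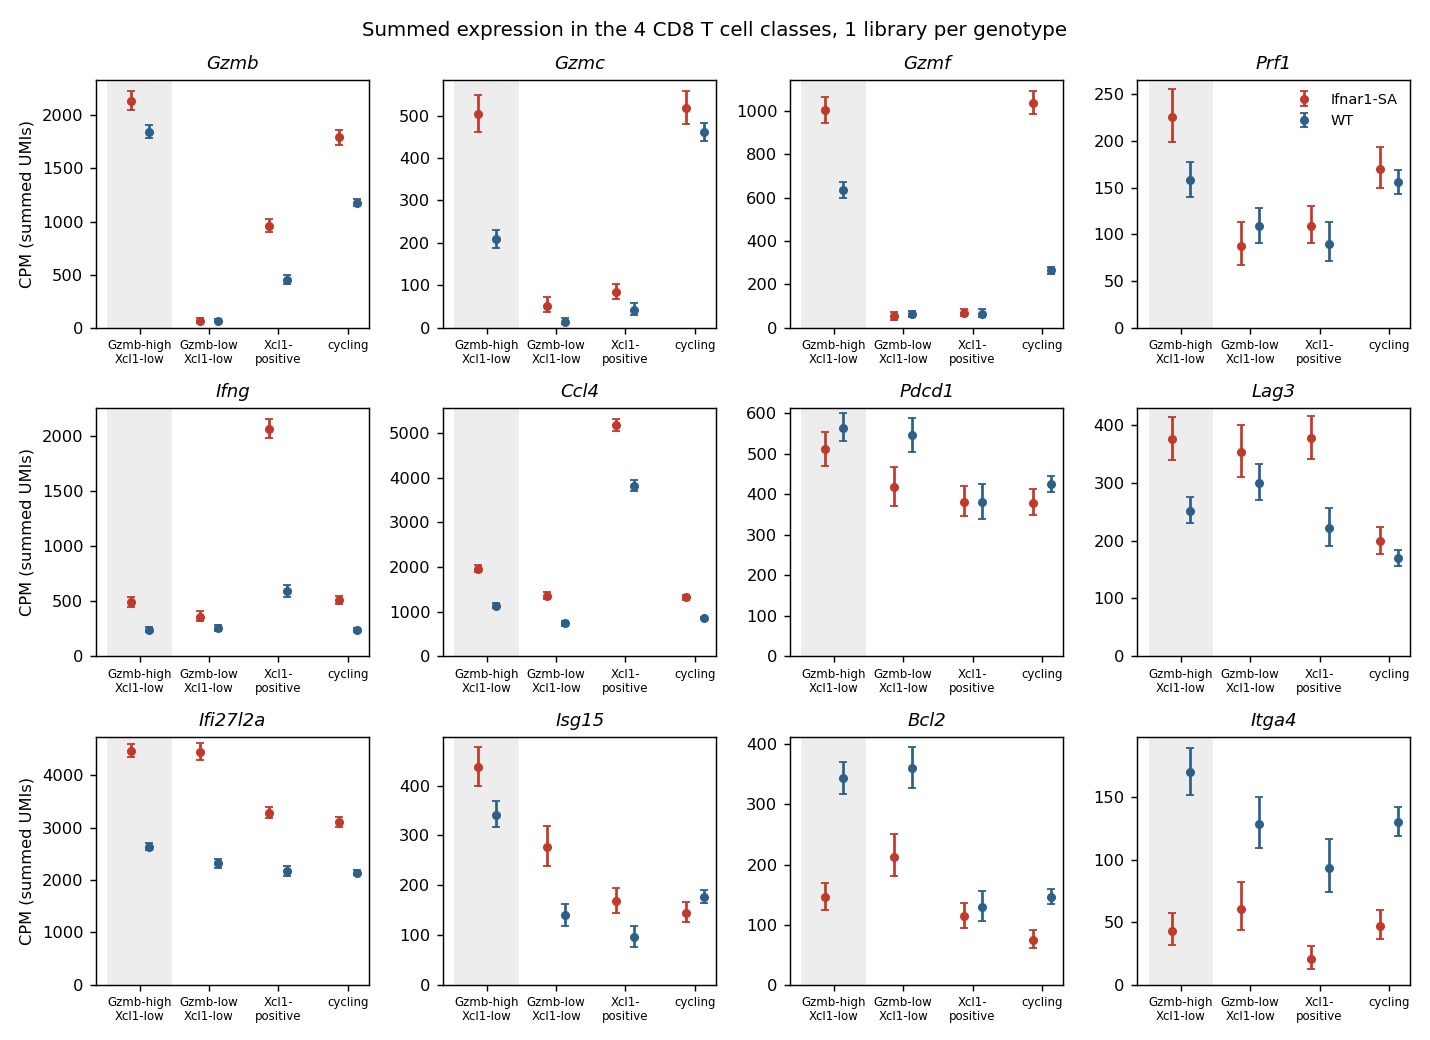
Summed expression of 12 genes in CPM (linear axes from 0) in the 4 CD8 T cell classes, with Ifnar1-SA left (red) and WT right (blue) in each class; bars are 95% counting intervals, and the Gzmb-high Xcl1-low class is shaded. Gzmc and Gzmf stand high in this class and in cycling cells, while Bcl2 and Itga4 are lower in Ifnar1-SA members, at 145 and 43.2 CPM, than in WT members, at 344 and 170 CPM.

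Bases before the starts of these granzyme genes are shown because Gzmc and Gzmf have alike stretches there and both were highest in members with most Gzmb. They come from RefSeq's annotation of GRCm38.p6, are 120 bases each ending at the base before the start, and lie on the minus strand at chr14:56234658-56234777 for Gzmc, chr14:56211408-56211527 for Gzmf and chr14:56262335-56262454 for Gzmb. Capitals mark TGACGTCA, a motif that reads the same on both strands and was picked after the sequences were seen. Where a gene had several RefSeq starts, the one with most matches was taken.
Gzmc: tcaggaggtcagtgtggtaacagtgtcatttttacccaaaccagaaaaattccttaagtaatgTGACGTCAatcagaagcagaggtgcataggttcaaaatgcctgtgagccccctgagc
Gzmf: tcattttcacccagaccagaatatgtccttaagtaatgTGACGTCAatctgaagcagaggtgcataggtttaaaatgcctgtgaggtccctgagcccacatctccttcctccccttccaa
Gzmb: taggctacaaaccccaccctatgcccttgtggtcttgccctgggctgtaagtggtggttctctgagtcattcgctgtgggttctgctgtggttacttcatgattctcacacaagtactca
In the 250 bases before the start, 3 of 10 granzyme genes held the motif (Gzmc, Gzmf and Gzmg), against 1.77% of 27025 genes. Since the motif was picked from Gzmc and Gzmf, their matches were fixed in advance. Gzmb did not hold it, and a link of the motif to expression was not tested. When the 120-base stretches were aligned over their full length, Gzmc and Gzmf were identical over 59.3% of columns, Gzmb and Gzmc over 45.3% and Gzmb and Gzmf over 52.2%. The stretches are out of register, with the motif at -57 from the start in Gzmc and at -82 in Gzmf. No unrelated stretches were aligned for comparison, so these shares do not tell likeness from its absence. In GENCODE vM21, Gzmf starts further upstream, at 56211417, and Gzmb further downstream, at 56262260. The end of the Gzmf stretch thus lies within the GENCODE gene, and the Gzmb stretch ends before the GENCODE start.

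Some genes of this family share long stretches, which bears on how reads are told apart. In the last 500 bases of their transcripts (GENCODE vM21), no stretch of 50 bases was shared with another granzyme for Gzmb or Gzmc, whereas 20.6% were shared for Gzmd, 18.2% for Gzme and 7.10% for Gzmf. Values for Gzmd and Gzme are uncertain for that reason.

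Between genotypes, 258 of 4782 genes with a mean of at least 20 CPM (5.4%) were past 1.5-fold higher in Ifnar1-SA members and 212 (4.43%) past 1.5-fold lower, and the median log2 ratio of all tested genes was 0.03. Of 16 granule genes tested, 12 were higher in Ifnar1-SA (54.2% of all genes were), 5 of them past 1.5-fold, and 1 was past 1.5-fold lower, with a median log2 ratio of 0.16. Gzmc (ENSMUSG00000079186, chromosome 14, 56231441 to 56234656, protein-coding) had 504 CPM in Ifnar1-SA members, against 209 CPM in WT members (log2 ratio 1.27, 1.08 to 1.46). Among members with no UMI of the cycling genes the log2 ratio of Gzmc was 0.49, within 1.5-fold. Gzmf stood at 1003.5 CPM in Ifnar1-SA and 634 CPM in WT (0.66, 0.54 to 0.78). Without the 5 highest cells of each library its log2 ratio was -0.032, so the direction for Gzmf rested on those cells. Prf1, which encodes perforin, had 226 CPM in Ifnar1-SA and 158 CPM in WT (0.52, 0.27 to 0.77). Serpinb6b, a serpin of the granzyme inhibitor group, had 459 CPM in Ifnar1-SA and 222 CPM in WT (1.05, 0.86 to 1.24). Gzma went the other way, at 219 CPM in Ifnar1-SA and 420 CPM in WT (-0.94, -1.16 to -0.73), with 72.7% of the Ifnar1-SA UMIs and 46.0% of the WT UMIs in 5 cells. Nkg7, a granule membrane protein, lay near the median of all genes (0.13).

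Secreted effector molecules were mostly higher in Ifnar1-SA members. Of 10 genes tested, 8 stood above WT, 5 of them past 1.5-fold, and the median log2 ratio was 0.68. Ifng, interferon gamma, stood at 492 CPM in Ifnar1-SA and 240 CPM in WT (log2 ratio 1.03, 0.85 to 1.22). The chemokines Ccl3 and Ccl4 were at 608 and 1962 CPM in Ifnar1-SA, against 274 and 1134 CPM in WT (log2 ratios 1.15 and 0.79). Ccl5, the most abundant of the list, was at 4890 CPM in Ifnar1-SA and 5252 CPM in WT (-0.10). The share of thinned members with an Ifng UMI was 31.2% in Ifnar1-SA and 23.8% in WT, against 0.320% and 0% of macrophage-gated cells (0 of 1236 in WT allows up to 0.243%). For Ccl3, which macrophages also make, the shares were 28.6% of Ifnar1-SA members and 17.2% of WT members, against 20.8% and 16.0% of macrophage-gated cells. For Ccl4 the share did not follow the CPM, at 53.6% of Ifnar1-SA members and 58.4% of WT members. The Ccl4 shares expected over all draws were 55.7% in Ifnar1-SA and 57.3% in WT.

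Inhibitory receptors had no shared direction. Of 10 tested, 6 were higher in Ifnar1-SA, with a median log2 ratio of 0.15; Cd160 was past 1.5-fold higher and Cd244a past 1.5-fold lower. Pdcd1 was at 511 CPM in Ifnar1-SA members and 565 CPM in WT members (-0.14, -0.30 to 0.01). Lag3, a receptor for MHC class II, had 376 CPM in Ifnar1-SA and 252 CPM in WT (0.58, 0.38 to 0.77), and Havcr2, which encodes TIM-3, had 238 CPM and 195 CPM (0.29, 0.05 to 0.52). Cd244a, an NK-type receptor of the SLAM family, had 33.1 CPM in Ifnar1-SA and 77.1 CPM in WT (-1.22, -1.79 to -0.68).

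Of 18 transcription factors linked to exhaustion or effector differentiation, 9 were higher and 9 lower in Ifnar1-SA, with a median log2 ratio of -0.03. Tox, a factor of chronically stimulated CD8 T cells, had 50.5 CPM in Ifnar1-SA members and 113 CPM in WT members (-1.17, -1.62 to -0.73), and a UMI in 7.29% of thinned Ifnar1-SA members and 20.5% of thinned WT members. The shares expected over all draws were 9.67% in Ifnar1-SA and 19.9% in WT. Tox was at 0% in the macrophage gate of both libraries, which allows up to 0.192% of 1563 Ifnar1-SA cells and 0.243% of 1236 WT cells. Ikzf2 was at 134 CPM in Ifnar1-SA and 192 CPM in WT (-0.52), while Zeb2, a factor of effector cells, was at 142 CPM and 84.6 CPM (0.75). Id2, the most abundant, was at 524 CPM in Ifnar1-SA and 505 CPM in WT (0.05).

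The type I interferon list of 60 genes had 50 tested, of which 42 were higher in Ifnar1-SA members. Of these, 8 were past 1.5-fold higher and none past 1.5-fold lower, and the median log2 ratio was 0.31. The counting interval lay wholly above 0 for 21 genes (10.3% of all genes) and below 0 for none (7.17% of all genes). Ifi27l2a, an interferon-inducible gene and the most abundant of the list, had 4471 CPM in Ifnar1-SA and 2637 CPM in WT (0.76, 0.70 to 0.82). Ly6a, which encodes Sca-1, had 1061 CPM in Ifnar1-SA and 564 CPM in WT (0.91, 0.79 to 1.03). Bst2, or tetherin, stood at 566 CPM in Ifnar1-SA and 414 CPM in WT (0.45), and Isg15, a ubiquitin-like modifier, at 437 CPM and 342 CPM (0.35). Irf7, a factor that amplifies the response, stood at 123 CPM in Ifnar1-SA and 79.8 CPM in WT (0.63). Cells of other types and free RNA carried the list too, in the same direction. It summed to 14064 CPM in Ifnar1-SA members and 10096 CPM in WT members, to 22764 and 18218 CPM in the macrophage gate, and to 20721 and 13145 CPM in barcodes of 10 to 100 UMIs, which hold free RNA. The part of free RNA in the list's ratio was not tested.

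Type I interferon genes had the same sign of median in every CD8 T cell class. It was 0.66 in Gzmb-low, 0.32 in Xcl1-positive and 0.08 in cycling cells, and the differences between these medians were not tested. Among all genes, 9.46% were past 1.5-fold higher and 5.79% past 1.5-fold lower in Gzmb-low cells, 9.38% and 5.72% in Xcl1-positive cells, and 4.25% and 2.36% in cycling cells. Ifnar1-SA members with most macrophage UMIs had most of the list, in bins set after the data were seen. The 22 members with 3 to 9 such UMIs had 20421 CPM of the list, the 101 with 1 or 2 had 12644 CPM and the 85 with none had 14180 CPM. In WT the 34, 158 and 134 members of these bins had 8952, 9839 and 10716 CPM. With members of 3 or more macrophage UMIs left out of both libraries the median log2 ratio was 0.17. Without these members the ratio of Isg15 was 0.016, so that its difference was no longer seen, and those of Ifi27l2a and Slfn5 were 0.66 and 0.80. Against all WT members, the median was 0.32 in the 85 Ifnar1-SA members with none (39 of 50 genes higher). It was 0.05 in the 101 with 1 or 2 (29 of 50 higher) and 1.05 in the 22 with 3 to 9 (46 of 50 higher). The median of the list was thus near 0 in the largest of these bins.

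Upstream bases of 4 interferon-inducible genes that were higher in Ifnar1-SA members are shown. Capitals mark the core of the interferon-stimulated response element, which is GAAA, then 2 bases of any kind, then GAAA, searched on both strands. All 4 hold the motif, so its presence in them is a description. Higher list genes without it within 250 bases, such as Irf7 (0.63) and Cmpk2 (0.83), are not shown. Where a gene had several RefSeq starts, the one with most matches was taken. Each printed stretch is the 160 bases before the start in RefSeq's GRCm38.p6 annotation. They lie at chr4:156200819-156200978 (minus strand) for Isg15, chr1:173942493-173942652 (minus strand) for Ifi203, chr1:173880188-173880347 (minus strand) for Mndal and chr11:82951942-82952101 (plus strand) for Slfn5.
Isg15: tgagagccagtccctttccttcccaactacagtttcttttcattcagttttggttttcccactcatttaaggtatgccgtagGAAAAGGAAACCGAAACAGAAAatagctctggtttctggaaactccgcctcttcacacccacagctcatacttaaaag
Ifi203: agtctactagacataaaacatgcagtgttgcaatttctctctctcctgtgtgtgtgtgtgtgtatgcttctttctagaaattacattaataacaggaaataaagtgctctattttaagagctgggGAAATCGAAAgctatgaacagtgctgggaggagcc
Mndal: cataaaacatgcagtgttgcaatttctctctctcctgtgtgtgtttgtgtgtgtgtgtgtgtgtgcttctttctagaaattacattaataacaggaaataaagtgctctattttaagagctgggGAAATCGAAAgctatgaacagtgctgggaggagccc
Slfn5: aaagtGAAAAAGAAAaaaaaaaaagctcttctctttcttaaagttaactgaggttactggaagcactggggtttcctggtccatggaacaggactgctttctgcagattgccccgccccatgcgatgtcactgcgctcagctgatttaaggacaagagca
Isg15 held 3 overlapping matches. In GENCODE vM21, Ifi203, Mndal and Slfn5 start further upstream than in RefSeq, so the stretches printed for them lie within the GENCODE genes. Ifi203 and Mndal, neighbouring members of the Ifi200 family, were nearly the same over this stretch, and reads of such near copies can be split by counting. Of the 60 list genes 48 had an entry, and 22 of them (45.8%) held the motif within 250 bases of the start, against 3.46% of 27025 genes. Among tested genes with an entry, 17 of 18 with the motif were higher in Ifnar1-SA members, with a median log2 ratio of 0.38. Of those without it, 15 of 22 were higher, with a median of 0.19. Ifi27l2a and Ly6a had no entry and are in neither group. Whether the motif bears on the ratios was not tested.

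**Figure D2:**
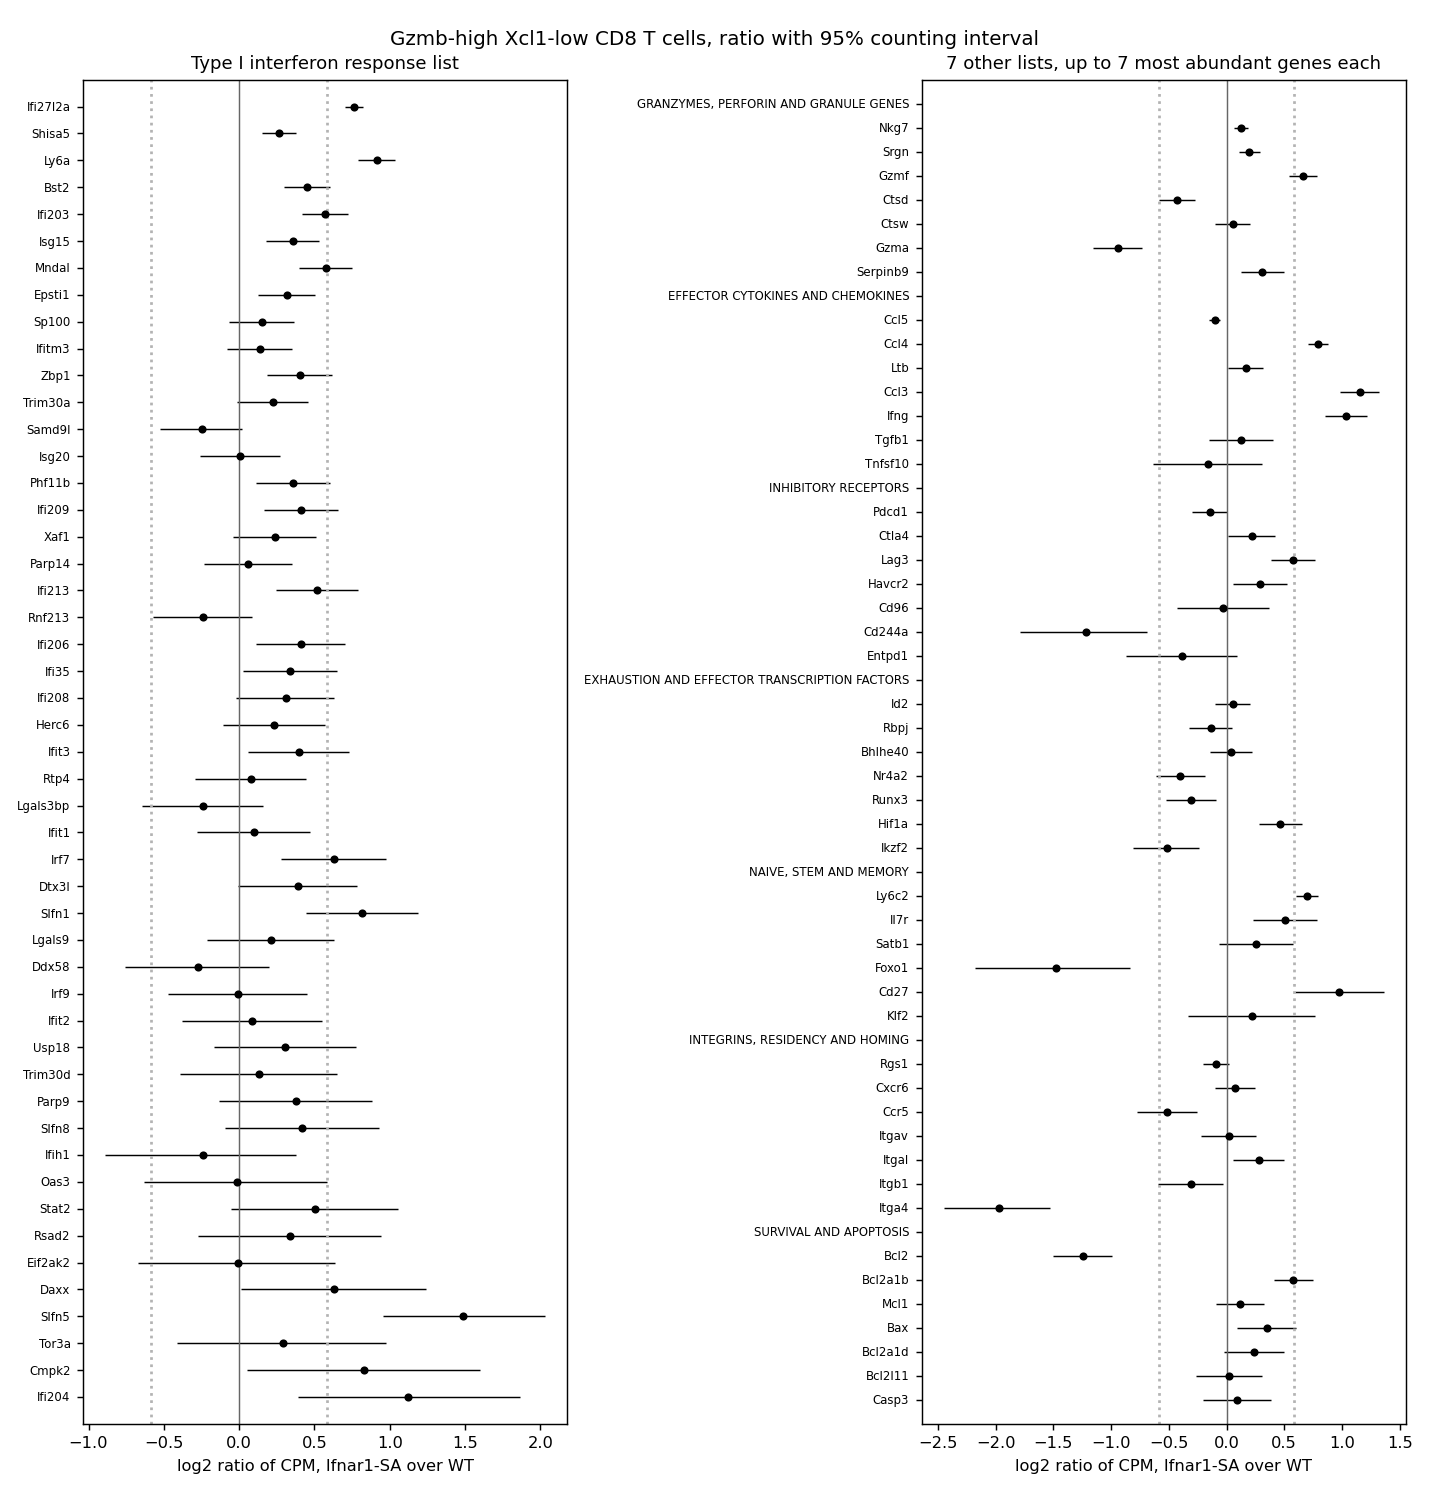
Log2 ratio of CPM, Ifnar1-SA over WT, in Gzmb-high Xcl1-low CD8 T cells for 49 of the 50 tested type I interferon genes (left) and up to 7 abundant genes of 7 other lists (right). Points are ratios, lines 95% counting intervals and dotted lines 1.5-fold. Most interferon genes lie right of 0, while Cd244a (-1.22), Foxo1 (-1.48), Itga4 (-1.97) and Bcl2 (-1.24) lie far left.

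Members of the Ifnar1-SA library differed by sex-linked transcripts, and several of the values above differed between the resulting sets. Of the 208 members, 122 held Xist UMIs and none of Ddx3y, Eif2s3y, Kdm5d and Uty, 47 held Y-linked UMIs and no Xist, 2 held both and 37 held neither. In WT, 312 members held Xist alone and 14 neither, and no Y-linked UMI was found. The members with neither were shallow, with medians of 2981 UMIs in Ifnar1-SA and 2821 UMIs in WT, and held 16303 and 17987 CPM of the type I interferon list. The median depth was 3481 UMIs in Y-linked-only and 5451.5 in Xist-only Ifnar1-SA members, and 4983 in Xist-only WT members. The labels give no sex and no link from cells to animals, so animal, sex and genotype cannot be told apart here.

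Ifng, Ccl3, Gzmc and Prf1 were higher in Y-linked-only than in Xist-only Ifnar1-SA members. Ifng stood at 988 CPM in Y-linked-only Ifnar1-SA members and 352 CPM in Xist-only Ifnar1-SA members, against 234 CPM in Xist-only WT members. Ccl3 stood at 1100 and 318 CPM in these Ifnar1-SA cells, against 268 CPM in the WT cells, and Gzmc at 1001 and 332 CPM, against 213 CPM. Prf1 was at 332 CPM in Y-linked-only and 147 CPM in Xist-only Ifnar1-SA members, against 158 CPM in Xist-only WT members. The 37 Ifnar1-SA members with neither transcript were at 458 CPM for Prf1 and 1074 CPM for Ccl3, and at 413 CPM for Gzmc. Among Xist-only members of both libraries the log2 ratios, Ifnar1-SA over WT, were 0.59 for Ifng (0.36 to 0.82), 0.25 for Ccl3 (0.01 to 0.48), 0.64 for Gzmc (0.40 to 0.88) and -0.10 for Prf1 (-0.44 to 0.22). Single cells weighed heavily in the smaller set: the 5 highest of 47 held 94.8% of Gzmc, 71.4% of Ccl3 and 65.5% of Ifng UMIs. By share of thinned cells with a UMI, Ifng was at 44.2% in Y-linked-only and 32.8% in Xist-only Ifnar1-SA members, against 23.3% in Xist-only WT members. For Gzmc the shares were 18.6% and 19.0% in the Ifnar1-SA sets, against 8.56% in the WT set. For Ccl3 they were 32.6% and 15.5% in the Ifnar1-SA sets, against 19.2% in the WT set, so that between the Xist-only sets the drawn share did not follow the CPM. The Ccl3 shares expected over all draws were 36.0% and 18.5%, against 17.4%.

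Many type I interferon genes showed the opposite order. In Xist-only members of both libraries, 43 of 50 were higher in Ifnar1-SA, with a median log2 ratio of 0.43. In Y-linked-only Ifnar1-SA members against Xist-only WT members, 22 of 49 were higher and the median was -0.07. Against all WT members it was -0.10, while that of the 37 Ifnar1-SA members with neither transcript was 0.37 (37 of 50 higher). The 14 WT members with neither had a median of 0.85 against all WT members (41 of 49 higher). Isg15 stood at 272 CPM in Y-linked-only and 495 CPM in Xist-only Ifnar1-SA members, against 333 CPM in Xist-only WT members, and Irf7 at 69.0 and 129 CPM, against 78.0 CPM. For Y-linked-only Ifnar1-SA over Xist-only WT members, both intervals included 0 (Isg15 -0.69 to 0.08, Irf7 -1.02 to 0.57). The median of the list above 0 in Ifnar1-SA members thus did not hold in the Y-linked-only cells. Ifi27l2a and Ly6a did not follow this order: Ifi27l2a was at 5825 CPM in Y-linked-only and 3652 CPM in Xist-only Ifnar1-SA members, against 2587 CPM in Xist-only WT members. Against WT, the summed list and the median of its genes differed in sign in the Y-linked-only members. The sum was 13709 CPM in Y-linked-only and 13679 CPM in Xist-only Ifnar1-SA members, against 9892 CPM in Xist-only WT members. Without Ifi27l2a it was 7884 and 10027 CPM, against 7306 CPM.

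**Figure D3:**
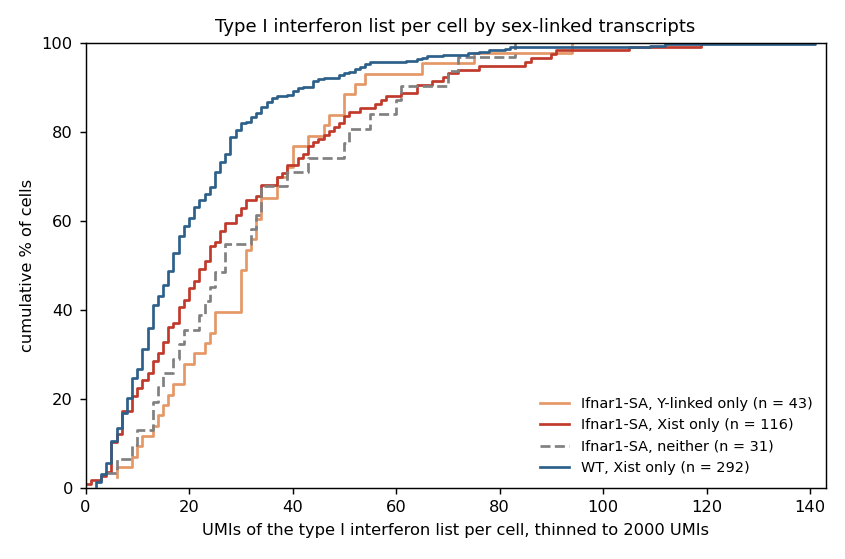
Cumulative percentage of cells (y axis) by UMIs of the type I interferon list per cell after thinning to 2000 UMIs (x axis), for Ifnar1-SA members with Y-linked UMIs only (43 cells), Xist only (116) and neither (31), and for WT members with Xist only (292). The medians were 31, 23 and 27 UMIs in the Ifnar1-SA sets, against 17 in the WT set, and the curves overlap widely.

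**Figure D4:**
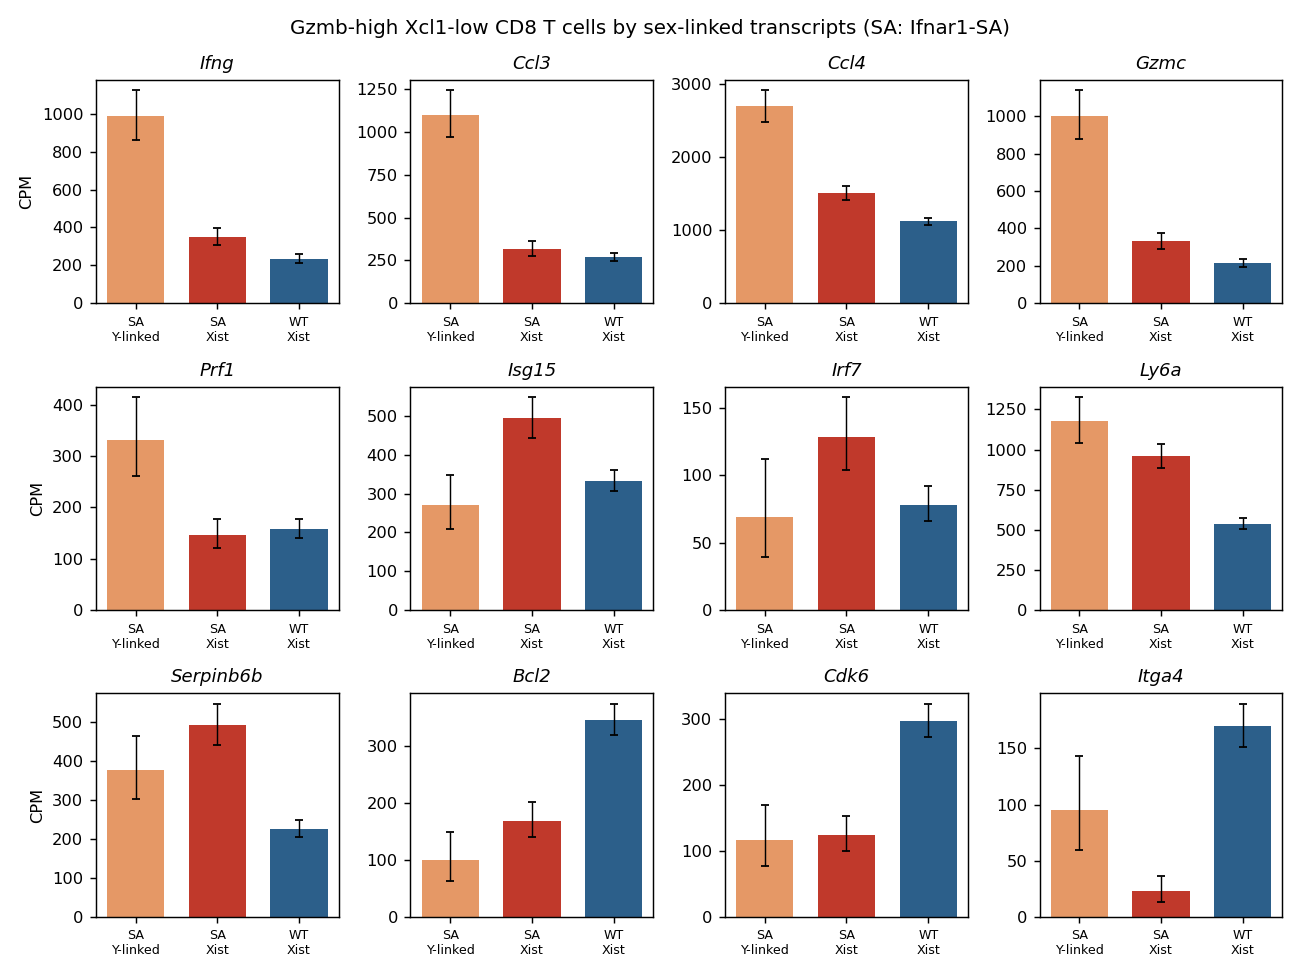
Summed CPM (linear axes from 0) of 12 genes in Ifnar1-SA members with Y-linked UMIs only and with Xist only, and in WT members with Xist only; error bars are 95% counting intervals. Ifng, Ccl3, Ccl4, Gzmc and Prf1 are highest in the Y-linked set of the 3 sets plotted, Isg15 and Irf7 in the Xist-only Ifnar1-SA set, and Bcl2, Cdk6 and Itga4 in WT.

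Itga4, Bcl2 and Cdk6 were lower in Ifnar1-SA members with Y-linked UMIs only and in those with Xist only. Itga4 (ENSMUSG00000027009, chromosome 2, 79255426 to 79333123, plus strand), the integrin alpha chain of VLA-4, had 43.2 CPM in Ifnar1-SA and 170 CPM in WT (log2 ratio -1.97, -2.45 to -1.53). It was at 94.9 CPM in Y-linked-only and 22.6 CPM in Xist-only Ifnar1-SA members, against 170 CPM in Xist-only WT members. Bcl2 (ENSMUSG00000057329, chromosome 1, 106538178 to 106714274, minus strand), which protects cells from apoptosis, had 145 CPM in Ifnar1-SA and 344 CPM in WT (-1.24, -1.50 to -0.99), and a UMI in 20.3% of thinned Ifnar1-SA members and 44.2% of thinned WT members. Macrophage-gated cells had a Bcl2 UMI in 2.24% and 2.59%. Cdk6, a kinase of the G1 phase, had 121 CPM in Ifnar1-SA and 294 CPM in WT (-1.28, -1.56 to -1.0). Against Xist-only WT members, the log2 ratios of Y-linked-only and Xist-only Ifnar1-SA members were -1.80 and -1.04 for Bcl2, and -1.35 and -1.25 for Cdk6.

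Other genes that were lower over all Ifnar1-SA members were Osgin1 (-2.61), Sema6d (-1.57), Foxo1 (-1.48), Chsy1 (-1.38) and Spry2 (-1.25). Foxo1 encodes a factor that maintains naive and memory T cells, and Spry2 an inhibitor of growth factor signalling. Cdk6, Bcl2 and Itga4 were also lower in Ifnar1-SA in the other 3 classes. Their log2 ratios in Gzmb-low, Xcl1-positive and cycling cells were -1.45, -0.97 and -0.60 for Cdk6, -0.76, -0.18 and -0.96 for Bcl2, and -1.08, -2.19 and -1.48 for Itga4. Of these, only the interval of Bcl2 in Xcl1-positive cells included 0. Foxo1 was not lower in Gzmb-low cells (0.29, -0.33 to 0.90). Tox did not hold this pattern, with 104 CPM in Y-linked-only and 35.3 CPM in Xist-only Ifnar1-SA members, against 110 CPM in Xist-only WT members. The survival list, Bcl2 included, had 6 of 11 genes above WT and a median log2 ratio of 0.02.

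Named genes that were higher in many Ifnar1-SA members were Nrgn and Ms4a4c. Nrgn, which encodes neurogranin, a calmodulin-binding protein described in neurons, had 497 CPM in Ifnar1-SA and 161 CPM in WT (1.63, 1.42 to 1.84), and a UMI in 40.6% of thinned Ifnar1-SA members and 16.5% of thinned WT members. It was seen in 0.576% and 0.0809% of macrophage-gated cells. Nrgn was higher in Ifnar1-SA in all 4 classes, with log2 ratios of 1.02 in Gzmb-low, 0.82 in Xcl1-positive and 1.01 in cycling cells. Ms4a4c had 143 CPM in Ifnar1-SA and 48.7 CPM in WT (1.56), but 82.0% and 65.5% of macrophage-gated cells held a UMI of it, against 17.7% of thinned Ifnar1-SA and 8.25% of thinned WT members. Slfn5, of the type I list, was at 73.5 CPM in Ifnar1-SA and 26.2 CPM in WT (1.49), and in Y-linked-only Ifnar1-SA members against all WT members its log2 ratio was -0.28.

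Surface molecules linked to cell state were higher in some cases. Of 16 naive, stem and memory genes, only 6 could be tested. In Ifnar1-SA members 5 of these were above WT and Foxo1 was below (-1.48), with a median log2 ratio of 0.38. Ly6c2, a marker of memory and activated CD8 T cells, had 1630 CPM in Ifnar1-SA and 1007 CPM in WT (0.69, 0.60 to 0.79), and it was at 1437 CPM in Y-linked-only and 1654 CPM in Xist-only Ifnar1-SA members, against 972 CPM in Xist-only WT members. Cd27, a costimulatory receptor, had 115 CPM in Ifnar1-SA and 58.3 CPM in WT (0.98), and Il7r 186 CPM and 131 CPM (0.51). NK-type receptors had 6 of 7 above WT and a median of 0.44, among them Klrk1, which encodes NKG2D (586 CPM in Ifnar1-SA and 401 CPM in WT, 0.55). Costimulatory receptors had 7 of 11 higher and a median of 0.20, cytokine receptors 6 of 11 and 0.06, and integrins and homing receptors 9 of 15 and 0.04. Il18r1 and Il18rap, the chains of the IL-18 receptor, were both higher, at 143 and 171 CPM in Ifnar1-SA, against 93.7 and 108 CPM in WT.

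The most extreme ratios came from few cells. Ccl1 had 297 CPM in Ifnar1-SA and 14.5 CPM in WT, and 5 cells held 92.6% of its Ifnar1-SA UMIs. Spp1 had 79.4% and the MHC class II genes H2-Ab1, H2-Aa and H2-Eb1 83.0% to 88.1% of their Ifnar1-SA UMIs in 5 cells. With members of 3 or more macrophage UMIs left out, the class II genes turned to log2 ratios of -0.26, -0.50 and -0.55. On the lower side, Col3a1, Fn1, H19 and Ogn, genes of fibroblasts or growing tissue, came from 6, 4, 7 and 1 WT members, against 4, 2, 2 and 1 Ifnar1-SA members. Olfr1369-ps1, which the annotation lists as protein-coding, came from 12 WT members and 2 Ifnar1-SA members. Gzmd, Gzme, Serpine2 and Pclaf completed the 12 highest genes (log2 ratios 2.22, 1.80, 1.88 and 1.40), found in 19 to 31 Ifnar1-SA and 12 to 33 WT members.

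Cells also varied within each library. Spread after thinning was measured as variance over mean (1 for counting noise alone) in genes with a mean of at least 0.1 UMI per cell in both libraries. Ranked by the lower of both libraries' values, the leading genes were Ccl5, at 26.3 in Ifnar1-SA and 30.7 in WT, Gzmf at 20.7 and 23.7, Malat1 at 17.6 and 20.8, and Gzma at 15.6 and 19.6. Gzmc, Ccl4, Ccl3, Ifi27l2a, Ifitm1, Cd74, Actb and Tmsb4x completed the 12 leading genes, at 8.86 to 26.4 in Ifnar1-SA and 5.12 to 9.16 in WT. The type I interferon sum per thinned member had quartiles of 14 and 43 UMIs in Ifnar1-SA and 10 and 28 in WT, with medians of 25 and 17.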

How the data were processed

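Droplet-based (10x) libraries of tumour-infiltrating immune cells, 1 from Ifnar1-SA and 1 from WT mice, were deposited as raw UMI counts for every listed barcode. Cell Ranger 4 wrote these counts for the authors, per the file headers, and the submitters' processing notes name mm10 as the build. The sources used here do not give the alignment settings. The depth was 62732220 UMIs in Ifnar1-SA and 55497066 in WT, and neither matrix had been filtered for cells. Barcodes with at least 1000 UMIs, 500 genes and at most 10% mitochondrial UMIs were kept. Members, gene lists and the sex-linked split were chosen with earlier results of these data known.

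UMIs of members were summed per library and scaled to CPM, with Python 3.11.15, numpy 2.4.6 and scipy 1.17.1. Ratios were formed for genes with a mean of at least 20 CPM, genes of the rule left out, with an exact conditional binomial interval. The code was tested on simulated data. Named genes had at least 50 CPM in a library, 30 UMIs in all and an interval wholly outside 1.5-fold. These were the 12 highest (of 28) and 12 lowest (of 18) ratios, leaving out predicted, sex-linked, ribosomal and mitochondrial genes and segments of antigen receptors. The most abundant list genes, genes past the same limits against Gzmb-low cells in both libraries and the 12 of largest spread were added. Promoter windows came from RefSeq (GRCm38.p6), positions from GENCODE vM21 (mm10). Other list genes printed, and the bins by macrophage UMIs, were chosen after their values were seen. The macrophage gate was at least 20 UMIs of the 5 macrophage genes of the rule and no T cell UMI. Thinning left out 16 Ifnar1-SA and 23 WT members. No doublets were removed: Scrublet (scanpy 1.11.5) marked 2 Ifnar1-SA and 0 WT cells by its automatic limit, too few to use. Without the highest scores, 206 Ifnar1-SA and 326 WT members remained. Trgc1, Trgc2, Trgc4 and Cd244 were not analysed here, and 2 list genes are not reported one by one.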

Additional observations from a re-analysis of the deposited data

How the results depend on the processing

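No paired analysis was possible because each genotype has 1 library. In all, 17 alternatives were tried. Without a CPM floor 1967 genes were past 1.5-fold higher and 1516 lower, after thinning 608 and 489, and in Y-linked-only Ifnar1-SA members against all WT members 776 and 590. With cells weighted equally 335 were lower, and without the 5 highest cells of each gene 143 were higher. Higher genes made up 54.9% of those past 1.5-fold, 48.4% under median-of-ratios scaling and 32.4% without the 5 highest cells. Against Gzmb-low cells thinning gave 619 genes higher and 764 lower in Ifnar1-SA, and 431 and 560 in WT.

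With Y-linked-only Ifnar1-SA members the median log2 ratio was -0.10 for type I interferon (reversed), -0.32 for interferon gamma leaning genes, -0.20 for interferon receptors, 0.080 for DNA replication, 0.17 for glycolysis and -0.10 for MHC class I genes. With Xist-only members it was 0.44 for type I interferon, over the genes past the floor in those cells, and 0.55 for NK-type genes. With macrophage UMIs under 3 it was 0.17 for type I interferon and -0.090 for interferon gamma leaning genes. The type I median was 0.40 with Xcl1 at 0, NK-type 0.55 at a mitochondrial maximum of 5%, DNA replication 0.13 with cycling genes at 0, and glycolysis 0.15 after thinning.

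Single genes turned in 18 cases: Col3a1 (0.97) and Fn1 (1.30) with Gzmb at 3 per 10000 UMIs; Col3a1 (0.92), Fn1 (0.013) and H19 (0.18) with cycling genes at 0; H2-Ab1 (-0.26), H2-Aa (-0.50) and H2-Eb1 (-0.55) with macrophage UMIs under 3. Without the 5 highest cells H2-Aa (-0.76), H2-Eb1 (-0.40) and Gzmf (-0.032) turned, and with Xist-only members Prf1 (-0.10). With Y-linked-only members Slfn5 (-0.28), H2-Ab1 (-0.39), H2-Aa (-0.31), H2-Eb1 (-1.45), Isg15 (-0.33) and Irf7 (-0.21) turned. In that setting the intervals of Isg15 (-0.73 to 0.04) and Irf7 (-1.05 to 0.54) included 0. Another 110 values of single genes moved beyond their counting interval without turning, except that Ifnar1, whose interval included 0, stood at -0.41 in Y-linked-only members. Apart from the sex-linked sets and the genes of few cells, those that moved by over 1.5 times were Gzmc (0.49 with cycling genes at 0), Slfn5 (0.80 with macrophage UMIs under 3), Itga4 (-2.65) and Gzme (2.92) without the 5 highest cells, and, against Gzmb-low cells after thinning, Gzmf (3.49) and Gzmc (2.52) in Ifnar1-SA and Ccr7 (-2.40) in WT. The cause was not tested. The other 338 values of main results stayed within their own error or within 1.5 times. Depth limits what can be said of genes such as Tcf7, with 10 UMIs in each library.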

Other observations

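Gene groups of growth and metabolism are given first against Gzmb-low cells, which the rule itself set apart and which were shallower, and then between genotypes. Of the DNA replication genes outside the rule, 16 of 20 were higher in members than in Gzmb-low cells in Ifnar1-SA (median log2 ratio 0.66) and 18 of 21 in WT (0.22), beside medians of -0.04 and -0.02 for all genes. Glycolysis genes were higher in 13 of 15 (0.42) in Ifnar1-SA and 11 of 16 (0.17) in WT. Between genotypes the same groups had 8 of 20 higher (-0.10) and 7 of 17 higher (-0.01) in Ifnar1-SA members. Mcm2, a helicase subunit, had 31 UMIs in Ifnar1-SA members and 101 in WT members, a log2 ratio of -0.92. MHC class I presentation genes had 13 of 20 higher in Ifnar1-SA (0.07), and T cell receptor signalling genes 10 of 14 (0.07).

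Type I interferon genes stood above Gzmb-low cells for 34 of 52 genes in Ifnar1-SA (median 0.14) and 44 of 48 in WT (0.46). Isg15 stood at 437 CPM in Ifnar1-SA members, against 276 CPM in Ifnar1-SA Gzmb-low cells, and at 342 CPM in WT members, against 139 CPM in WT Gzmb-low cells. Interferon gamma leaning genes had 11 of 15 higher in Ifnar1-SA than in WT members (0.16), and receptor and signalling genes 7 of 10 (0.18). Of 21 heat shock and immediate early genes, 7 were higher in Ifnar1-SA members (median -0.10). The chaperone gene Dnajb1 had 145 UMIs in Ifnar1-SA members and 439 in WT members (-0.82), while Atf3 had 39 and 11 UMIs (2.61).

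Other marker lists were sparse in members. B cell genes summed to 37.7 CPM in Ifnar1-SA and 35.9 CPM in WT, and mast cell genes to 10.1 and 7.49 CPM. The stromal and tumour-like list stood at 13.8 CPM in Ifnar1-SA and 137 CPM in WT, red cell genes at 0 and 86.7 CPM, and the class II list at 508 and 164 CPM. The CD4 and regulatory T list summed to 492 CPM in Ifnar1-SA and 500.4 CPM in WT, mostly from Ctla4 and Ikzf2, which CD8 T cells also express. The gamma-delta T and NK list stood at 12.9 CPM in Ifnar1-SA and 17.7 CPM in WT.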
